A study of Mus musculus with 4 samples.

Results

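Open chromatin at 4 imprinted loci of the mouse was examined by ATAC-seq, in which a transposase cuts accessible DNA: Igf2r with its antisense RNA Airn on chromosome 17, Grb10 on chromosome 11, Gnas on chromosome 2 and Rasgrf1 on chromosome 9. The members were all peaks that overlapped the body of 1 of these 5 genes or 20 kb on either side of it. Peaks of the 4 libraries that overlapped were merged into regions, which gave 91 regions at the 4 loci of 208211 in the whole series. Of the 91, 51 were listed in all 4 libraries (56.0%, against 59.0% of the whole series), 14 in 3, 9 in 2 and 17 in 1. Embryonic stem cells that were either wt or Hox-/- gave 2 libraries per genotype. Per the series title the Hox-/- cells lack all function of the Hox genes, which encode transcription factors that set position along the body axis. Cells of both genotypes grew with 10% serum, 100 ng/ml leukaemia inhibitory factor, 3 µM of a GSK-3 inhibitor and 1 µM of a MEK1/2 inhibitor, so the culture was the same for the controls. The labels do not say whether the libraries of a genotype came from separate cultures or how many cell clones they represent, so the spread between them may be technical.

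An imprinted gene is expressed mainly from the chromosome of 1 parent, because a control region carries DNA methylation from only the egg or only the sperm. At Igf2r, which encodes the receptor that clears insulin-like growth factor 2, the control region lies in an intron and holds the promoter of Airn, a long noncoding RNA made from the paternal chromosome that silences the paternal Igf2r. Grb10 encodes an adaptor that dampens insulin and growth factor signalling and has a promoter used in most tissues and other promoters, used in the brain, further inside the gene. Gnas encodes the stimulatory G protein alpha subunit from 1 promoter, while further promoters upstream give Nesp55, XLas, the antisense RNA Gnasas1 (Nespas) and a noncoding exon 1A transcript. Rasgrf1 encodes a Ras guanine nucleotide exchange factor, and its control region is known to lie further upstream than the 20 kb margin used here. At Airn, Gnasas1 with XLas, exon 1A and the inner Grb10 promoters the methylation comes from the egg, and at Rasgrf1 from the sperm. ATAC-seq peaks do not tell the parental chromosomes apart, and methylation was not measured.

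The promoters of the starts that the results turn on are shown first, because they differ in their content of CpG, the dinucleotide that carries the methylation. Each run is 1 RefSeq promoter of GRCm38.p6, read in the direction of its gene, with every CpG in capitals.
Airn, chr17:12741061-12741360, plus strand: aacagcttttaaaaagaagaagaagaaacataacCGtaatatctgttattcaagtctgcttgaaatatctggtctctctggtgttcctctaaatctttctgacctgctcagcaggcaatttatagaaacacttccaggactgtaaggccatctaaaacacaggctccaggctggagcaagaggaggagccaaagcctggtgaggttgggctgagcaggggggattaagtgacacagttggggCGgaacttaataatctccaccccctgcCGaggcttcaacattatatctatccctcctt
Igf2r, chr17:12769657-12769956, minus strand: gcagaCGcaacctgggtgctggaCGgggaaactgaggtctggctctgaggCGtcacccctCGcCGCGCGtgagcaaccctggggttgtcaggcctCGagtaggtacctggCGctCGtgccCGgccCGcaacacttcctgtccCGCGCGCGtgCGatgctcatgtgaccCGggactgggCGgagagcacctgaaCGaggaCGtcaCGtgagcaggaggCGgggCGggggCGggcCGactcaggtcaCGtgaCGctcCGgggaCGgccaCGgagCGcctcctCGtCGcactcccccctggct
Gnas at the Nesp55 start, chr2:174284070-174284369, plus strand: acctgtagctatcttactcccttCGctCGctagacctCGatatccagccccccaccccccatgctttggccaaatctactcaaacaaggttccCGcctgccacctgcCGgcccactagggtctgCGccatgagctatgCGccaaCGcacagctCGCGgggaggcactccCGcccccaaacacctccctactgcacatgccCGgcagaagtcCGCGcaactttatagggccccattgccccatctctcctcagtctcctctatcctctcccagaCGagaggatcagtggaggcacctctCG
Gnas at exon 1A, chr2:174327499-174327798, plus strand: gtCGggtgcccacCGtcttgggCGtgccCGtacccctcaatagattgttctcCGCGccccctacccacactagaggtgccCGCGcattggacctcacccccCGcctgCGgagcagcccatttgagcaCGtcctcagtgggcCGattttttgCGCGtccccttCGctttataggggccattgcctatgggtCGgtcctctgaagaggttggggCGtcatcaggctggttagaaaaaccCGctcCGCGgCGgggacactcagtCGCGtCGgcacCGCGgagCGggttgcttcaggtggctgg
Gnas at the G protein alpha subunit start, chr2:174329756-174330055, plus strand: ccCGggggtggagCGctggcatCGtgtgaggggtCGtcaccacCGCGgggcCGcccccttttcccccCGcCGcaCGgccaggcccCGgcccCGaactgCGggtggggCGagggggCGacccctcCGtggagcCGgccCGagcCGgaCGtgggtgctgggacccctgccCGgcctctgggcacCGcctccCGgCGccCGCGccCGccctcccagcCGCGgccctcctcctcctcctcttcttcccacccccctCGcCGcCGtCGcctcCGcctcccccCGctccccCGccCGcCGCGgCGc
Grb10 at its outermost start, chr11:12037371-12037670, minus strand: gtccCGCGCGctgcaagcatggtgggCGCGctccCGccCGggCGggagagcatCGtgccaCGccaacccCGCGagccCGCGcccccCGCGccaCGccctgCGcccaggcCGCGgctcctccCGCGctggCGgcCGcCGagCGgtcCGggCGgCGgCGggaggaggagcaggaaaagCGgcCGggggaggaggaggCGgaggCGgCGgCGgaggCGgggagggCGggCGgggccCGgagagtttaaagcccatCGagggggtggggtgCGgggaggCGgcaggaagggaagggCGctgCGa
The Airn promoter held 3 CpGs and 45.7% GC, against 34 CpGs and 70.7% GC at Igf2r. The Airn sequence ends at 12741360, so CpGs further downstream were not counted. The start of the G protein alpha subunit had 40 CpGs and 81.7% GC, and the outermost Grb10 start 45 CpGs and a GC content at percentile 99.0 of all promoters. At exon 1A there were 27 CpGs and at the Nesp55 start 16. Over 32851 promoters of the same length of 300 bases the median was 7 CpGs and 52.7% GC. On both strands 3 motifs were searched: TGCCGC of ZFP57, a protein that keeps methylation at imprinted control regions, GCCATNTT of YY1, and a consensus of the insulator protein CTCF. They occur in 11.6%, 6.05% and 0.0365% of all promoters. Among the 9 RefSeq promoters of the member genes, of which 2 overlap at exon 1A, the only match was 1 TGCCGC, on the reverse strand at base 275, counted from the left end, of the outermost Grb10 promoter. A match is a description of the letters and not a binding site.

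The lists held 213705 and 216795 peaks in wt and 191704 and 200214 in Hox-/-. In the 4 Hox clusters the wt lists had 183 and 188 entries while those of Hox-/- had 6 and 4, so the lists follow the genotype labels at the mutated genes. All 10 naive stem cell genes checked, Pou5f1, Sox2 and Nanog among them, had a region within 1 kb of a gene end in each library. Of markers of other cell types, 3 to 4 of 6 primitive endoderm genes, 4 of 5 fibroblast genes, 5 of 5 trophoblast genes and 5 of 5 epiblast genes also had one in each library, with Gata4 and Postn in none. Regions at a gene's ends do not measure its expression.

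Strength was compared by rank, because the values of a peak depend on the depth of its own library. Each of the 122787 regions listed in all 4 libraries was ranked in each library by its −log10 p, as the authors' peak caller gave it, with rank 1 for the strongest. Ranks are given for replicate 1 and then replicate 2. All libraries then have lists of the same length. The rank shift is the mean log2 rank in wt minus that in Hox-/-, so a positive shift is a better rank in Hox-/-. It was tested with limma across all 122787 regions with Benjamini-Hochberg adjustment. Genotypes are said not to overlap at a region when both Hox-/- ranks lie on the same side of both wt ranks.

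At the Igf2r and Airn locus (window chr17:12662406-12879884) the regions around the Airn start ranked better in both Hox-/- libraries, while the Igf2r start did not separate the genotypes. The region over the Airn start, at 12741100 to 12741826 and inside the Igf2r gene body, had ranks of 24809 and 27288 (wt) and of 20176 and 16708 (Hox-/-). Both Hox-/- ranks were better than both wt ranks. The shift was 0.50 ± 0.23 (SE, n = 2 per genotype; limma, adjusted p = 0.474), larger than the differences of −0.14 between the wt and 0.27 between the Hox-/- libraries. It did not pass the test. Of all regions with a mean rank between about 20000 and 60000, 5.14% had a shift of at least 0.5. The fold over background at this region was close in all libraries, at 10.0 and 10.1 in wt and 10.2 and 10.9 in Hox-/-. Ranked by fold in place of −log10 p, its shift was 0.30.

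On either side of the Airn start region the direction was the same. The region before the start, at 12740255 to 12740715, ranked 83256 and 89602 in wt and 73604 and 65344 in Hox-/-, a shift of 0.32. The region after it, at 12742174 to 12743014, ranked 116364 and 113516 in wt and 98162 and 80510 in Hox-/- (shift 0.37 ± 0.14, SE; limma, adjusted p = 0.362, n = 2 per genotype). In these 3 neighbouring regions the genotypes did not overlap, as in 20.5% of all shared regions with a better rank in Hox-/-, and none of the 3 passed the test. Neighbours share their surroundings and are not independent of each other.

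The Igf2r start, on the opposite strand and at the far side of the shared gene bodies, lay in a region at 12768993 to 12770298. It ranked 36925 and 25237 in wt and 25798 and 33076 in Hox-/-. The ranks of the genotypes were mixed, and the shift of 0.06 was smaller than the differences between replicates, 0.55 in wt and −0.36 in Hox-/-. Further inside Airn the directions differed. The region at 12810240 to 12810847 ranked 55098 and 48994 in wt and 76857 and 62241 in Hox-/-, worse in both Hox-/- libraries (shift −0.41 ± 0.24, SE; limma, adjusted p = 0.576, n = 2 per genotype), and its shift was −0.66 when ranked by fold and −0.26 without Hox-/- replicate 1. At 12802115 to 12802921, by contrast, the ranks were 90736 and 104476 in wt and 59361 and 87699 in Hox-/-.

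The region at 12776490 to 12776802, inside Airn, was listed for wt in each library and for Hox-/- in none. It was weak, at ranks 157554 and 145692 of the whole wt lists. Over the locus 4 of 14 shared regions ranked better in Hox-/- without overlap and 4 ranked worse, where 20.5% and 20.3% of all shared regions did so, with a median shift of −0.003 that is close to 0. Mas1, which encodes a G protein-coupled receptor, overlaps the far end of Airn, and its start region was listed in 3 libraries and not in Hox-/- replicate 2. The third strongest region of the locus, at 12869776 to 12870433 beyond the far end of Airn, ranked 41756 and 48657 in wt and 66038 and 37484 in Hox-/-. The genotypes overlapped there, with a shift of −0.14 that was 0.27 without Hox-/- replicate 1. The window's outermost regions were at 12687611, with 3 libraries, and at 12874906, with 1. The first regions beyond it were at 12660666, listed in 2 libraries, and at 12879929, listed in all 4 and 0.045 kb outside the window.

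**Figure D1:**
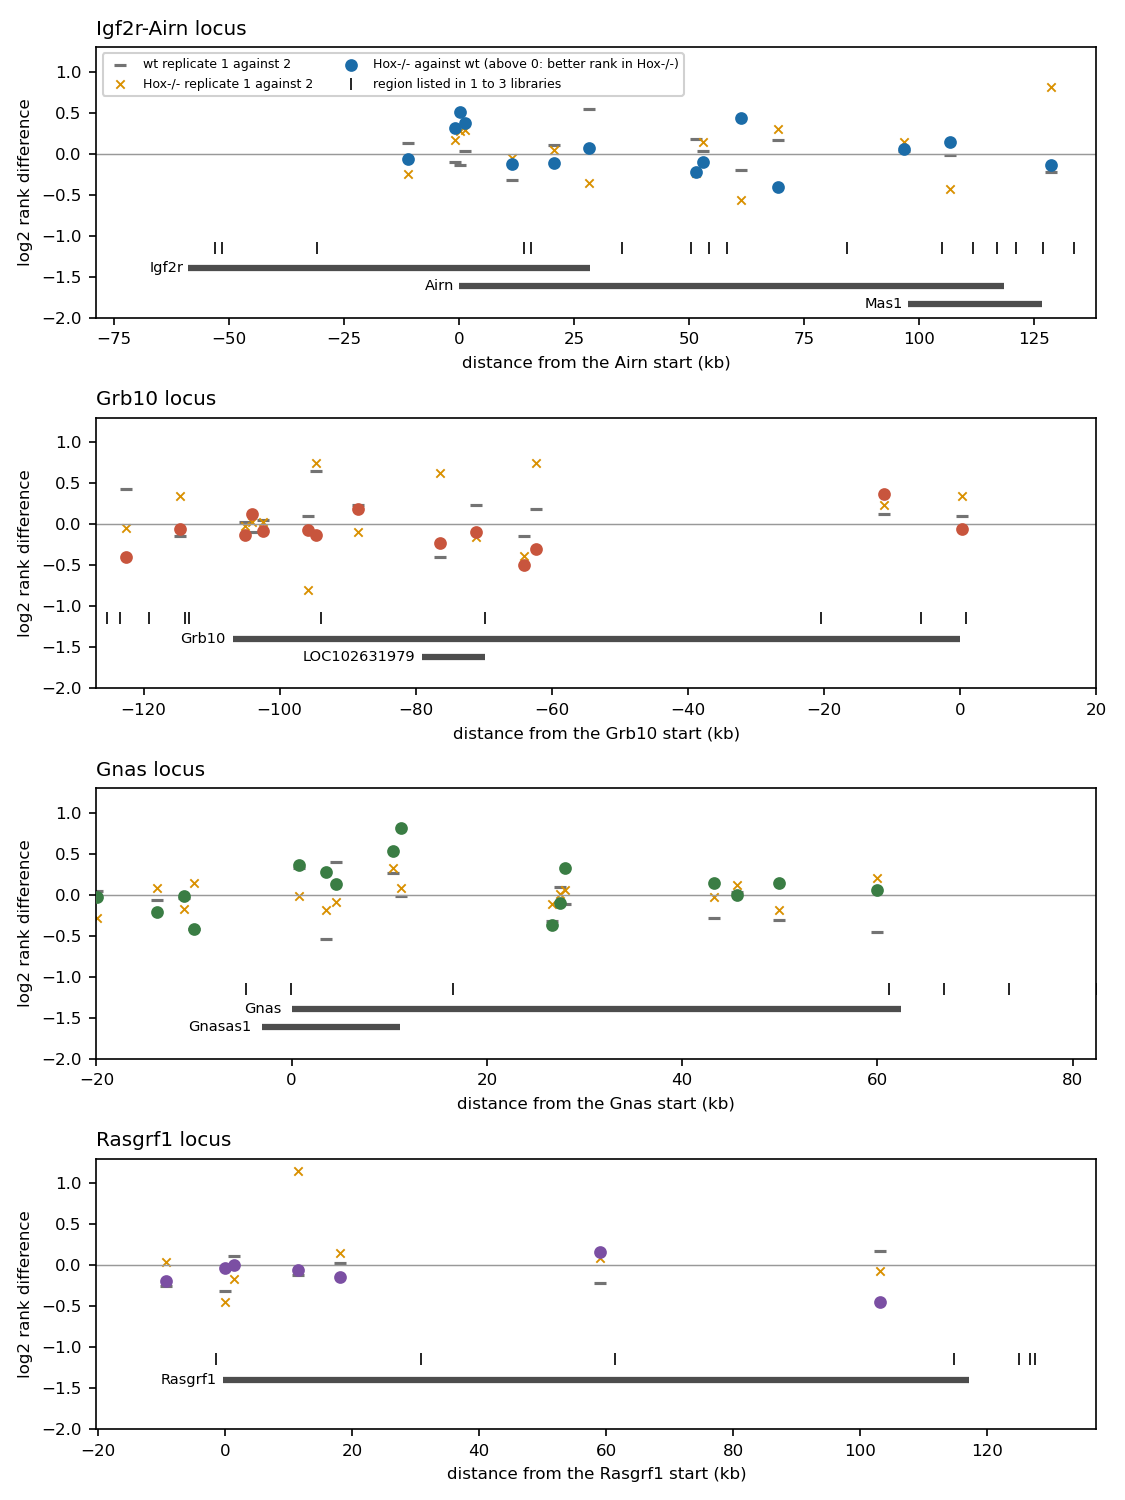
Rank differences along the 4 loci. Each panel shows 1 locus, with the distance from the named gene start in kb on the horizontal axis (for Grb10 the outermost start, for Gnas the Nesp55 start) and the log2 rank difference on the vertical axis. Filled points are Hox-/- against wt (above 0, better rank in Hox-/-), dashes and crosses the replicates of wt and Hox-/- (above 0, better rank in replicate 2), black ticks the regions listed in 1 to 3 libraries, and bars the gene bodies. The highest filled point, 0.82, is the Gnasas1 region of the Gnas panel.

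The strongest region of all 4 loci lay inside Grb10 (window chr11:11910499-12057428), and its outermost start was weak. The region at 11948356 to 11949550 ranked 2160 and 1842 in wt and 1695 and 1810 in Hox-/-. That at 11942404 to 11943068 ranked 4164 and 2664 in wt and 4731 and 2831 in Hox-/-. Both lie in the part of the gene farthest from its outermost start. In the first the Hox-/- ranks were barely better than both wt ranks, with a shift of 0.19 that did not exceed the wt replicate difference of 0.23. Ranked by fold its shift was 0.79. Without wt replicate 1 the shift was 0.07, and without wt replicate 2 it was 0.30. In the second the genotypes overlapped, with a shift of −0.14, which was 0.50 when ranked by fold. Its sign depended on single libraries, with −0.46 and 0.19 without wt replicate 1 or 2, and 0.23 and −0.51 without Hox-/- replicate 1 or 2.

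The third strongest region of Grb10, at 11972769 to 11973791, ranked 7436 and 8238 in wt and 9648 and 12590 in Hox-/-. It was worse in both Hox-/- libraries, by a shift of −0.49 ± 0.25 (SE, n = 2 per genotype; limma, adjusted p = 0.504), which was −0.30 without Hox-/- replicate 2. The opposite direction was found near the inner Grb10 start that RefSeq places at 12027971. The region at 12025337 to 12027005 ends 966 bp downstream of that start and ranked 45106 and 41307 in wt and 36256 and 30754 in Hox-/-, a shift of 0.37 ± 0.24 (SE; limma, adjusted p = 0.619, n = 2 per genotype). Its genotypes did not overlap, and the shift exceeded the replicate differences of 0.13 and 0.24.

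The region over the outermost Grb10 start, at 12037124 to 12038119, ranked 96257 and 90058 in wt and 109712 and 86484 in Hox-/-. These ranks overlapped, with a shift of −0.07. Beyond the far end of the gene, which lies at 11930499, the region at 11914417 to 11915145 ranked 102112 and 75794 in wt and 114868 and 118328 in Hox-/- (shift −0.41 ± 0.15, SE; limma, adjusted p = 0.356, n = 2 per genotype). Its fold was 4.34 and 5.99 in wt and 3.39 and 2.99 in Hox-/-. Here the difference between the wt libraries, 0.43, was larger than the shift.

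At Grb10 1 weak region was listed in Hox-/- alone and 1 in wt alone. The region at 11967500 to 11967784, over the start of the noncoding LOC102631979 inside Grb10, ranked 107397 and 136306 in the Hox-/- lists. The region at 11923272 to 11923639, beyond the end of the gene, ranked 166147 and 148102 in the wt lists. Over the locus 3 of 14 shared regions ranked better without overlap and 4 ranked worse (20.5% and 20.3% genome-wide), with a median shift of −0.09. The outermost regions of the window were at 11911927, in 3 libraries, and 12038177, in 1. Outside it the nearest were at 11904572, in 4 libraries, and 12229484, in 3 libraries and 172 kb from the window.

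At Gnas (window chr2:174264320-174366744) the region over the start of the antisense RNA Gnasas1 had the largest shift of all 51 shared member regions. That region, at 174295023 to 174295947 and inside the Gnas gene body, contains the end of Gnasas1 at 174295436, which is its start since it runs opposite to Gnas. Its ranks were 4539 and 4605 in wt but 2668 and 2523 in Hox-/-. The libraries of each genotype lay close together and far from those of the other. The shift was 0.82 ± 0.27 (SE, n = 2 per genotype), against replicate differences of −0.02 in wt and 0.08 in Hox-/-. The unadjusted limma p was 0.0074 and the adjusted p = 0.299, so the region did not pass. Of the 4924 shared regions with a mean rank up to 5000, 5.02% had a shift of at least 0.8.

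The fold over background differed little at the Gnasas1 start, with 10.8 and 11.0 in wt and 11.3 and 11.6 in Hox-/-. Ranked by fold, it lay at 24661 and 25132 in wt and at 20421 and 19024 in Hox-/-, a shift of 0.34. The genotypes did not overlap by either measure. Leaving out 1 library at a time gave shifts of 0.78 to 0.86. The neighbouring region at 174294408 to 174294950 ranked 40272 and 33650 in wt and 28460 and 22750 in Hox-/-, a shift of 0.53 ± 0.24 (SE; limma, adjusted p = 0.461, n = 2 per genotype).

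The Nesp55 start, the outermost of Gnas, lay in a small region at 174284082 to 174284364 that was listed in 3 libraries and not in Hox-/- replicate 1, the library with the fewest peaks. It ranked 76556 and 59813 in the wt lists and 58806 in that of Hox-/- replicate 2. The next region downstream, at 174284818 to 174285407, ranked 45101 and 35870 in wt and 31023 and 31395 in Hox-/-, with a shift of 0.37 and no overlap. Between the Nesp55 and Gnasas1 starts, the region at 174287484 to 174288269 ranked 14534 and 21080 in wt and 13565 and 15445 in Hox-/-, where the genotypes overlapped. The 5 shared regions from the Nesp55 start to the Gnasas1 start had shifts of 0.13 to 0.82, and in 3 of them the genotypes did not overlap, where 20.5% of all shared regions ranked better without overlap. None passed limma, and this stretch was chosen with its values in view.

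The starts of exon 1A and of the G protein alpha subunit did not separate the genotypes. The exon 1A region at 174327070 to 174328101 ranked 66401 and 80722 in wt and 65671 and 67194 in Hox-/-, a shift of 0.14. The alpha subunit start lay in a region of 1974 bp, at 174328920 to 174330893, which was the widest of those described here. It ranked 108960 and 106986 in wt and 112496 and 103814 in Hox-/-, with a shift of −0.001 and a fold of 2.76 to 3.08. It held 4 listed summits in each of 3 libraries and 7 in Hox-/- replicate 2.

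Shifts to a worse rank in Hox-/- were found at Gnas as well. The region at 174310686 to 174311273 ranked 30104 and 37764 in wt and 41714 and 45354 in Hox-/-, a shift of −0.37, which was −0.70 when ranked by fold and −0.20 without wt replicate 1. Upstream of the gene, the region at 174273962 to 174274608 ranked 18965 and 25451 in wt and 30859 and 28075 in Hox-/-, a shift of −0.42 that did not exceed the difference between the wt libraries. It was −0.21 without wt replicate 1 and −0.63 without wt replicate 2. Ranked by fold the genotypes overlapped there, at 41744 and 50976 in wt and 53119 and 49640 in Hox-/-. Over the locus 4 of 16 shared regions ranked better without overlap and 4 ranked worse (20.5% and 20.3% genome-wide), with a median shift of 0.10. A weak region at 174279483 to 174279752 was listed for Hox-/- in each library and for wt in none, at ranks 142944 and 147838 of the whole lists. The outermost regions inside the window were at 174264134, in 4 libraries, and 174366678, in 1, and the first outside were at 174263779, in 1, and 174410092, in 2.

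Rasgrf1 (window chr9:89889508-90046979) had the fewest regions, 14, of which 7 were shared, and its start did not separate the genotypes. The start region at 89909241 to 89910338 ranked 73484 and 91186 in wt and 72062 and 98289 in Hox-/-, with a shift of −0.04. The replicates of each genotype lay farther apart than that. The strongest region of the locus was upstream of the gene, at 89900152 to 89900853, and ranked 15240 and 18170 in wt and 19301 and 18754 in Hox-/-. Its shift of −0.19 did not exceed the wt replicate difference of −0.25, and was −0.07 without wt replicate 1 and −0.32 without wt replicate 2. Ranked by fold the genotypes overlapped, at 2652 and 5664 in wt and 5230 and 4946 in Hox-/-, with a shift of −0.39.

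Inside Rasgrf1 the region at 90012770 to 90013148 ranked 57710 and 51320 in wt and 72632 and 76277 in Hox-/-. It was worse in both Hox-/- libraries, with a shift of −0.45 ± 0.23 (SE, n = 2 per genotype; limma, adjusted p = 0.512), and of −0.70 when ranked by fold. The second strongest region of the locus, at 89968400 to 89969321, ranked 58085 and 67484 in wt and 57873 and 54660 in Hox-/-. It was better in both Hox-/- libraries, with a shift of 0.15 that did not exceed the wt replicate difference of −0.22. That shift was 0.26 without wt replicate 1 and 0.05 without wt replicate 2. At 89920982 to 89921568 the Hox-/- libraries disagreed most, with ranks of 116125 and 52386 against 71704 and 78285 in wt. In the locus 1 of 7 shared regions ranked better without overlap and 3 ranked worse (20.5% and 20.3% genome-wide), with a median shift of −0.06. Outermost inside the window were 89900152 and, in 1 library, 90037172. The first region upstream of the window, at 89883272 to 89883510 and 26 kb from the gene, was listed in wt replicate 1 alone, at rank 166356, and the first on the other side, at 90051920, also in 1 library.

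**Figure D2:**
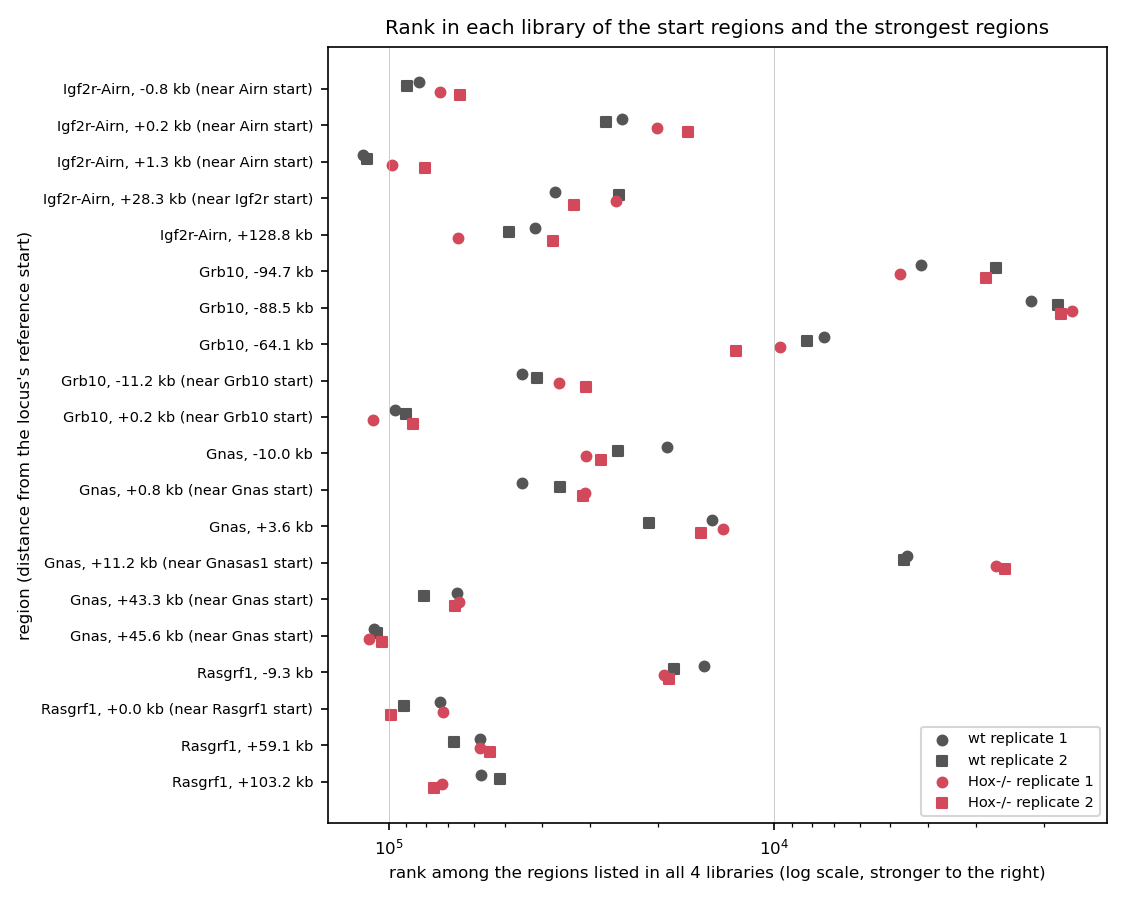
Rank in each library of the regions near a member start and of the 3 strongest regions per locus. The horizontal axis is the rank among 122787 shared regions on a log scale with stronger regions to the right, and each row is 1 region, named by its distance from the start used in the locus maps. Grey marks are the wt and red marks the Hox-/- libraries, circles replicate 1 and squares replicate 2. In the Gnasas1 row the 2 red marks lie at 2668 and 2523, to the right of the grey ones at 4539 and 4605.

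Counted over all 4 loci, no member region passed the test, and the directions were mixed. Of the 51 shared regions, 0 passed limma at an adjusted p of 0.05 in either direction, and 5 had an unadjusted p under 0.05. Genome-wide 0.0277% of shared regions passed with a better rank in Hox-/- and 0.0114% with a worse one, and 10.4% had an unadjusted p under 0.05. The genotypes did not overlap in 12 members with a better rank in Hox-/- (23.5%) and in 15 with a worse rank (29.4%), against 20.5% and 20.3% of all shared regions. Ranked by fold the counts were 14 and 14, against 21.3% and 18.9% of all shared regions by that ranking. The shift also exceeded both replicate differences in 9 of the 51 in each direction, where the genome-wide shares were 13.9% and 14.0%. The median shift of the members was −0.06, against 0.00 over all shared regions, but −0.02 when ranked by fold or with a −log10 q of at least 5, and 0.04 without Hox-/- replicate 1.

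Few regions were particular to the lists of 1 genotype. Regions listed in both libraries of 1 genotype and neither of the other numbered 2 for wt and 2 for Hox-/-, of 91. The genome-wide shares were 3.83% for wt and 1.23% for Hox-/- of 208211 regions. With a −log10 q of at least 5 they numbered 6 and 1 of 80, against 4.42% and 1.0% genome-wide, and with windows of 50 kb there were 4 for wt and 2 for Hox-/- of 124. Of the 40 regions that were not shared, the best rank in any list was 58806. The 4 loci held 97 and 99 peaks in wt and 89 and 96 in Hox-/-, a mean of 98.0 ± 1.41 and 92.5 ± 4.95 (SD, n = 2). The difference of −5.5 gave p = 0.33 in the exact permutation test (two-sided), the smallest p that 2 against 2 libraries allow. Hox-/- replicate 1, with the fewest peaks in all, also had the fewest here, and without it the difference was −2.0. As a share of all peaks of the same library the loci held 0.0454% and 0.0457% in wt and 0.0464% and 0.0479% in Hox-/-, so relative to the length of the lists the direction turned and both Hox-/- values lay above both wt values.

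**Figure D3:**
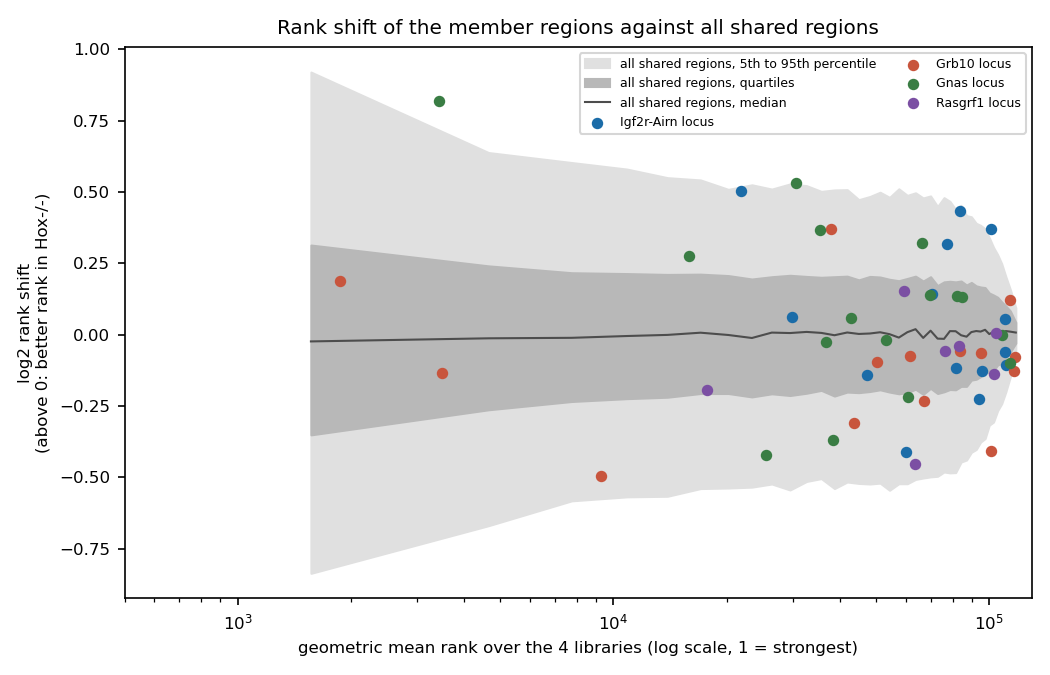
Rank shift of the 51 shared member regions against all 122787 shared regions. The horizontal axis is the geometric mean rank over the 4 libraries (log scale) and the vertical axis the log2 rank shift, with coloured points for the members by locus, and grey bands for the 5th to 95th percentile and the quartiles of all shared regions in 40 classes of equal size. The green point at 0.82, the Gnasas1 start, lies just above the light band, and members of each locus lie on both sides of 0.

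The surroundings of the loci were described in the same way. Within 1 Mb on either side of the window the median shift was 0.005 over 107 regions at Igf2r and Airn, 0.001 over 88 at Grb10, −0.03 over 117 at Gnas and 0.05 over 67 at Rasgrf1. Around Rasgrf1 28.4% ranked better without overlap and 14.9% worse, while around each of the other loci 18.2% to 19.6% ranked better and a larger share ranked worse. On the rest of the 4 chromosomes it lay between −0.009 and 0.01.

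RefSeq starts of the 5 member genes lay in 6 shared regions, 1 of which held both exon 1A starts. This leaves out the stronger Gnasas1 region. Of the 6, the region at the alpha subunit start of Gnas was the weakest in all 4 libraries. Airn was the strongest in 3 and Igf2r in wt replicate 2. Airn ranked 16708 to 27288 and Igf2r 25237 to 36925, so their ranges overlap. Exon 1A (65671 to 80722), Rasgrf1 (72062 to 98289) and the outermost Grb10 start (86484 to 109712) each overlapped the next, as did Grb10 and the alpha subunit start (103814 to 112496). A gap without overlap lay only between Igf2r and exon 1A. Compared with the 187 regions at starts of at least 80% GC, only 3.21% were weaker than the alpha subunit start and 8.56% weaker than the Grb10 start. Igf2r, with 42.2% of 1812 start regions of its GC class weaker, and Airn, with 63.3% of 1480, were near the middle of theirs.

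GC content moved with rank and, slightly, with the genotype shift over all gene starts. The median rank was 35278 at starts below 50% GC, 20382 at 50 to 60%, 14762 at 60 to 70%, 23292 at 70 to 80% and 51478 at 80% or more, so it was best in the middle classes. The median shift went from −0.008 below 50% GC to 0.09 at 80% or more. The part of GC content in the values of single starts was not tested. The Airn promoter, with the largest shift of the member promoters in RefSeq, is in the class below 50% GC. Its sequence covers only a part of the ranked region.

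**Figure D4:**
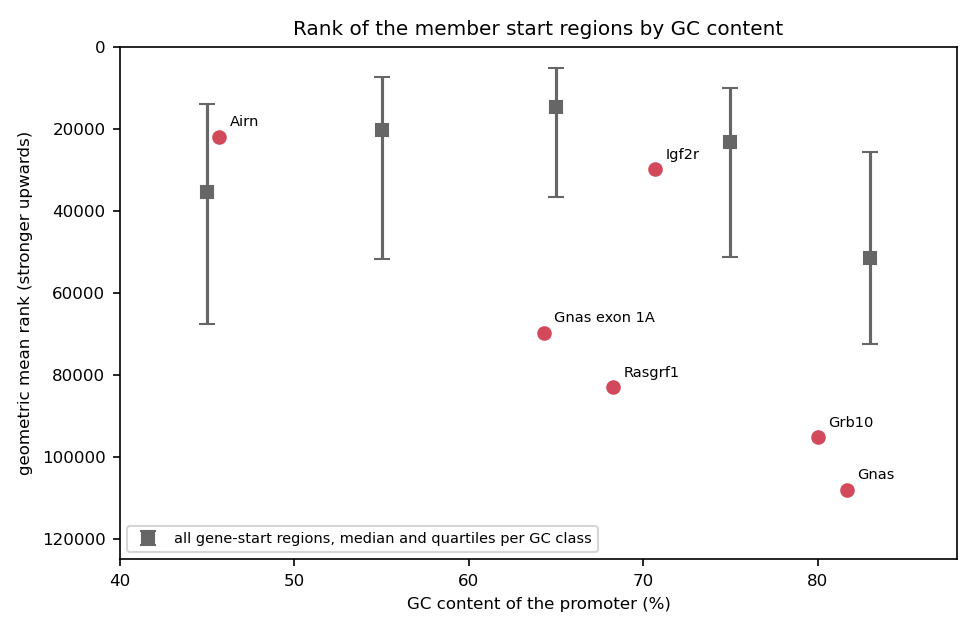
Rank of the member starts by GC content. The horizontal axis is the GC content of the promoter in percent and the vertical axis the geometric mean rank over the 4 libraries, with stronger regions upwards. Red points are the 6 shared regions that hold a member start. Both exon 1A starts lie in the same region, drawn at the GC content of the start at 174327749. Grey squares with bars are the median and quartiles of all gene-start regions in 5 GC classes, each near the middle of its class. Gnas, at rank 108018, Grb10, Rasgrf1 and exon 1A lie below the lower quartile of their classes.

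To place the members among other imprinted genes, a list of 60 genes, Gnasas1 among them, was described in the same way. Of these, 45 had a shared region near a start (or, where RefSeq gave no start, near a gene end). With the Gnasas1 region left out, they gave 41 distinct regions outside the 4 loci. Without overlap 11 of the 41 ranked better in Hox-/- (26.8%) and 6 worse (14.6%), with a median shift of 0.11 and 0 past limma's adjusted threshold. Among all regions that hold a gene start the shares were 19.4% and 18.1%. Ranked by fold there were 12 better and 4 worse, where 21.3% and 18.9% of all shared regions were so by that ranking.

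Among the 11 were starts with shifts close to or above that of Gnasas1. Kcnq1ot1, a long noncoding RNA that silences its neighbours on the paternal chromosome, ranked 1658 and 1316 in wt and 895 and 813 in Hox-/- (shift 0.79). Peg3, which encodes a zinc finger protein, shares its region with Usp29, at 52128 and 36958 in wt and 25184 and 23611 in Hox-/- (shift 0.85). Plagl1, a zinc finger transcription factor gene, ranked 20162 and 17901 in wt and 12747 and 10322 in Hox-/- (shift 0.73). In each of these the Hox-/- ranks were the better ones. The shifts of Mest and Slc38a4 were 0.55 and 0.46. Peg13, for which RefSeq gave no start, had a shift of 0.82 in a region near a gene end.

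Other starts ranked worse in Hox-/-. Snrpn, which encodes a splicing protein, ranked 74890 and 61446 in wt and 79930 and 83457 in Hox-/- (shift −0.27). Gab1, which encodes a docking protein of receptor signalling, ranked 3302 and 2663 in wt and 4335 and 4473 in Hox-/- (shift −0.57). These genes were picked from the list with their values in view and are a description only. Over the whole windows of the 60 genes, without the regions of the 4 loci, 115 of 418 shared regions ranked better without overlap (27.5%) and 73 worse (17.5%). Of all shared regions 20.5% and 20.3% did so, and the median shift in the windows was 0.06. In these windows 1 region, in the domain of H19, Igf2 and Kcnq1, passed limma at an adjusted p of 0.05. The median shift was 0.02 in the domain of H19, Igf2 and Kcnq1, 0.29 over 31 shared regions of the Dlk1-Dio3 domain (20 better without overlap and 0 worse) and 0.12 over 112 at paternally expressed genes, against −0.06 at the 4 loci described here. That last value changed sign without Hox-/- replicate 1. The differences between these lists were not tested.

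**Figure D5:**
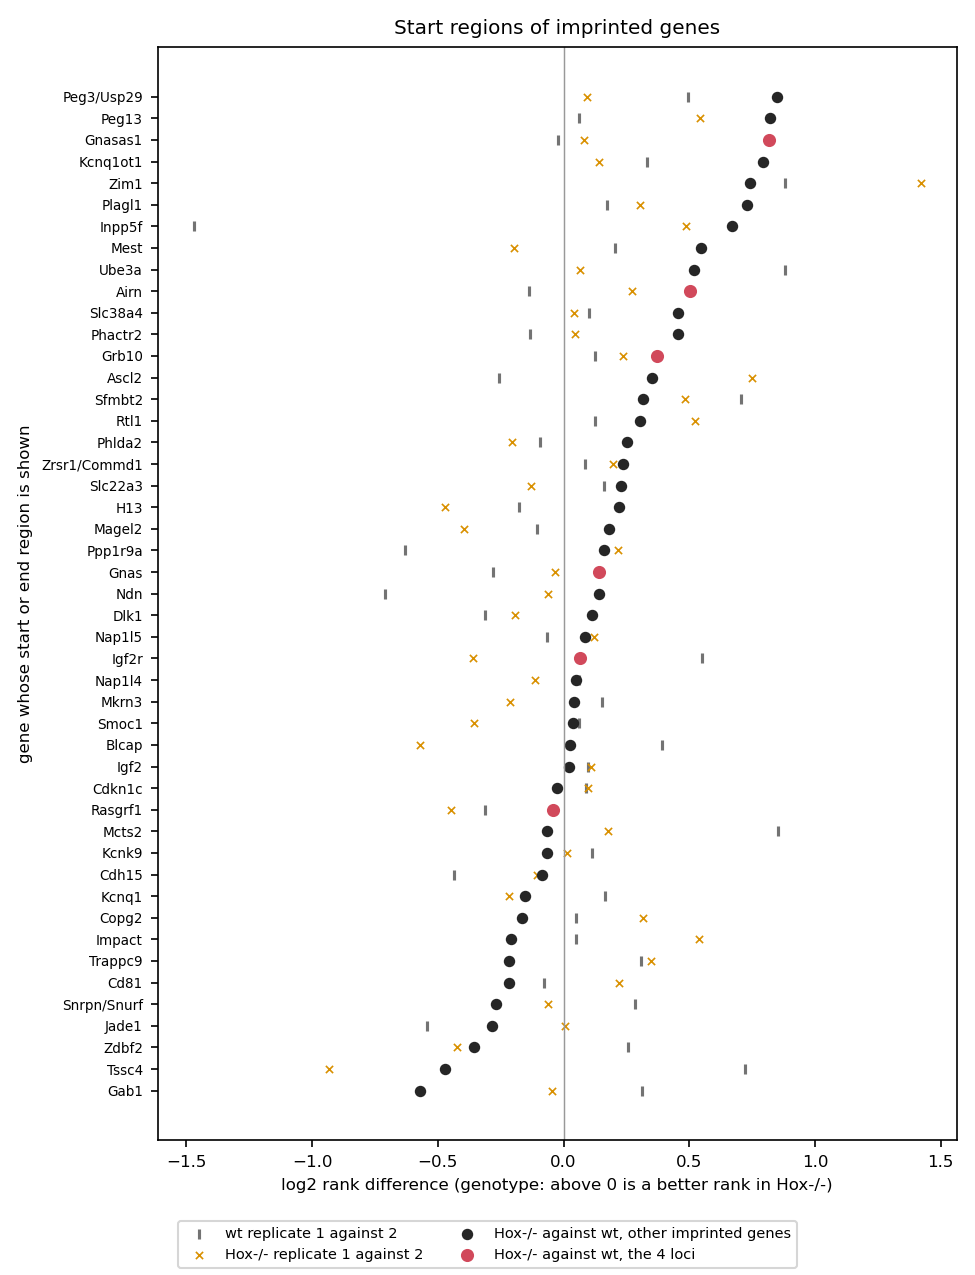
Shift of 1 start region of each imprinted gene. Each start was given its nearest region within 1 kb, and the best-ranked of these that was shared is shown. Where RefSeq gave no start, as for Gnasas1 and Peg13, the region lies near a gene end. Gnas is shown at exon 1A, because the region nearest to the Nesp55 start was not shared. The horizontal axis is the log2 rank difference and each row 1 region, named by its genes. Filled points are Hox-/- against wt (red for the 4 loci, black for other imprinted genes), and bars and crosses the wt and Hox-/- replicates (above 0, better rank in replicate 2). Gnasas1 (0.82), Airn (0.50) and the inner Grb10 start (0.37) lie in the upper part with Peg3 and Kcnq1ot1, and Igf2r (0.06) and Rasgrf1 (−0.04) near 0.

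By the distance between log2 ranks over the 4 libraries, the start regions most like that of Airn among the other imprinted genes were those of Ascl2 (distance 0.43) and Ndn (0.60). Nearest to Igf2r were Blcap (0.22) and Magel2 (0.49), and nearest to the inner Grb10 start Phactr2 (0.40) and Mest (0.44). For Gnas at exon 1A they were Igf2 (0.32) and Slc22a3 (0.58), and for Rasgrf1 Dlk1 (0.26) and Slc22a3 (0.49). These are likenesses of level in 4 libraries.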

How the data were processed

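ATAC-seq peaks of 2 wt and 2 Hox-/- libraries were used, grouped by the genotype label. The authors deposited 1 peak list per library, with a fold ratio over background, a −log10 p, a −log10 q, a score and a summit position per line. Per the submitters' processing notes, the build was mm10 and the tools were cutadapt 4.8, Bowtie2 2.5.0, Picard 2.18.2, bedtools 2.30.0, MACS2 2.2.9.1 and deepTools 3.5.4, with no settings. Shifting of reads for the transposase is not given in the sources used here. The lists hold no read counts, so depth is unknown. The lowest deposited −log10 q was 1.30 in each list.

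Lines overlapping by at least 1 bp were merged into regions (Python 3.11.15, pandas 2.3.3), each with the highest −log10 p per library. Regions listed in all 4 libraries were ranked. Restricting ranks to them leaves out regions that a genotype lost. limma 3.58.1 (R 4.3.3, trend) was fitted to the log2 ranks. It was also run on simulated ranks with independent noise, unlike these data, and its power with 2 against 2 libraries is not given here. Genes and promoters are RefSeq GRCm38.p6, the same assembly as mm10. All 5 genes matched. Exons and introns were not assigned. No RefSeq promoter of Gnasas1 was used here.

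Regions were named if they lay at a member start, were among the 3 strongest of a locus, were listed in 1 genotype only, passed the test, had the largest shift beyond the replicates in a locus, or lay at a window edge. Other regions described were chosen with their values in view. The members, lists and rules were chosen with earlier results of these data known. The shared replicate numbers do not pair the libraries by the labels. Alternatives were ranking by fold or in the whole list, normal scores, a stricter q, 50% overlap, merged lines, windows of 10 or 50 kb, a replicate block and leaving out each library.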

Additional observations from a re-analysis of the deposited data

How the results depend on the processing

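In every alternative for which limma was run (all but merged lines, which bear on peak numbers), the number of member regions past its adjusted threshold was 0 with a better and 0 with a worse rank in Hox-/-, with 2 to 7 at an unadjusted p under 0.05 and a smallest adjusted p between 0.17 and 0.644. With the replicate block these counts were 0 and 0, and the smallest adjusted p was 0.17. The replicate differences of the genotypes had a correlation of 0.00402 over 122787 regions. The median shift of −0.0571 was −0.0218 when ranked by fold, −0.018 with a −log10 q of at least 5 and −0.0264 with an overlap of at least 50%. Regions listed in wt alone numbered 6 and in Hox-/- alone 1 with a −log10 q of at least 5, where fewer peaks remain, and 4 were in wt alone with windows of 50 kb.

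Leaving out 1 library at a time leaves 1 genotype with a single library that is assumed to vary like the other genotype, so its 0 to 0 regions past the test in each direction say nothing of stability. It gave a median shift of −0.0318 to 0.0352, a difference in peak number of −9.0 to −2.0, 5 to 8 regions in wt alone and 3 to 7 in Hox-/- alone, since the rule then asks for fewer libraries. The median was positive without Hox-/- replicate 1. Merged lines gave a peak difference of −3.0, a −log10 q of at least 5 one of −15.5, and windows of 10 and 50 kb ones of −3.5 and −12.5. Of the regions named by rule, 8 moved by more than 1 SD of the more variable replicate pair when ranked by fold. Among them were the Gnasas1 region, from 0.82 to 0.34, and the Airn start region, from 0.50 to 0.30. The change at Gnasas1 was larger than both of its replicate differences. The Grb10 region at 11942404 moved from −0.14 to 0.50, which is less than the difference between its own replicates. At the starts of Igf2r, Rasgrf1, exon 1A, the alpha subunit and the outermost Grb10 start, where the genotypes overlap, leaving out 1 library turned the sign of the shift. Absence from a list depends on depth, which is unknown. The ranking by fold of the counts without overlap was added after seeing the data.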
